A study of Mus musculus with 4 samples.

Results

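The genes described here carry pyruvate into the citrate cycle and move its reducing equivalents across the inner mitochondrial membrane. They are 34 genes of the 53647 in the count tables: the 2 subunits of the mitochondrial pyruvate carrier, 4 subunits of the pyruvate dehydrogenase complex, its 4 kinases and 1 phosphatase, 12 citrate cycle genes, 3 malic enzymes and pyruvate carboxylase, and 7 genes of the malate-aspartate shuttle and related carriers. The 34 were taken by symbol, with no rule on measured values, but the list was chosen with earlier results of these data known. Succinate dehydrogenase (complex II) was not among them. RNA from mouse primary myotubes was sequenced in 4 libraries, 2 of cells treated with EDA-A2 and 2 of controls. All libraries came from cells of WT genotype, isolated from limb muscles of pups 2 to 3 days old and differentiated from myoblasts for 48 h. The treated cells then received recombinant EDA-A2, a ligand of the TNF family that binds EDA2R, at 250 ng/mL for 24 h, and cells were harvested at 72 h. The labels name the other group only as Control and do not say what it received, nor whether the 2 libraries of a group came from separate cultures or animals. The p-values therefore measure the spread between these libraries, which may be technical.

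Pyruvate made by glycolysis enters mitochondria through a carrier formed by MPC1 and MPC2, and the pyruvate dehydrogenase (PDH) complex converts it to acetyl-CoA. PDH kinases switch the complex off by phosphorylation, and PDH phosphatases switch it on again. The citrate cycle oxidizes the acetyl group and hands electrons to the respiratory chain, while the malate-aspartate shuttle brings the reducing equivalents of cytosolic NADH into the matrix through paired cytosolic and mitochondrial malate dehydrogenases and aspartate aminotransferases. Muscle relies on these routes when it burns carbohydrate aerobically, and Pdk4 is well known there as a kinase gene raised by fasting.

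Depth was nearly equal, with 29444155 to 29746863 read pairs on genes per library. Of the 34 genes, 33 passed the expression filter with at least 85 counts in every library, and 15173 genes of the whole table were tested. Slc25a13 did not pass. Among markers of the labelled cell type, all 10 myotube genes passed the filter, Myh3 and Acta1 among them. Their summed normalized counts were 761583 to 798933 in controls and 583628 to 587278 after EDA-A2, a difference of -25.0%. Of the 10, 4 (Myh3, Myh8, Acta1 and Actc1) fell past the threshold below, and 7 were lower and 0 higher at an unadjusted edgeR p under 0.05. The sum follows its most abundant genes, Myh3 and Acta1. Log2 fold changes ran from -0.57 for Myh3 to -0.02 for Des and -0.01 for Mymk. Fewer myotubes and less of these RNAs per myotube cannot be told apart in bulk RNA. Of the myoblast markers 1 of 5 fell past the threshold (Cdh15), and their summed counts were 17018 to 18514 in controls and 17566 to 18009 after EDA-A2. That sum held opposite moves. At an unadjusted edgeR p under 0.05, 2 of the 5 were lower (Cdh15 and Pax7) and 1 was higher (Sdc4). Their log2 fold changes were -0.47, -0.17 and 0.19, and Sdc4 had the most counts of the 5. None of the 6 dividing-cell genes passed (summed 21555 to 25582 against 23459 to 23903). Of 8 fibroblast markers 5 were tested, with Lum and Thy1 at 0 in every library and a sum of 49617 to 51563 against 47322 to 48015. Of 8 macrophage markers 4 were tested (summed 274.3 to 309.1 against 330.2 to 439.1), and the defining genes Ptprc and Adgre1 had 0 to 2 counts in any library. Of 6 endothelial markers 2 were tested (summed 144.2 to 161.3 against 168.1 to 183.3), with Emcn at 0. By edgeR and by DESeq2, 0 genes of these 4 lists passed. At an unadjusted edgeR p under 0.05 the fibroblast list had 1 lower and 1 higher, the macrophage list 2 higher, and the endothelial and dividing-cell lists 0. Of all genes tested, 8.03% were lower and 7.61% higher at that p, and 2.13% fell past the threshold. The part of the marker shifts in the results that follow was not tested.

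After EDA-A2, 2 of these genes fell past the threshold: Mdh1, the cytosolic malate dehydrogenase, and Me3, the mitochondrial malic enzyme that uses NADP. No gene of the 34 rose past it. Both cytosolic enzymes of the malate-aspartate shuttle and both subunits of the pyruvate carrier differed from control by -15.6% to -17.7%, of which only the Mdh1 difference passed. The PDH subunits and kinases and the citrate cycle genes gave estimates between -0.17 and 0.15 on the log2 scale, and none passed by either tool used. By the quasi-likelihood test of edgeR, with p adjusted over all genes tested (Benjamini-Hochberg) and a threshold of 0.05, 2 of 33 genes were lower and 0 higher, and the DESeq2 Wald test gave the same counts. Across all genes tested, 2.13% were called lower and 2.45% higher, or 4.57% in either direction. At an unadjusted p under 0.05, 6 of the 33 were lower (Me3, Mdh1, Got1, Mpc1, Mpc2 and Idh3b) and 1 was higher (Me1), against 8.03% lower and 7.61% higher of all genes.

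The direction was shared more widely than the calls. The estimated level was lower after EDA-A2 in 26 of the 33 genes, against 50.5% of all genes tested, and the median log2 fold change was -0.07, against -0.00 over all genes. When libraries were scaled by total counts, which moved the median of all genes to 0.05, 17 of the 33 genes were lower and their median was -0.01. Both EDA-A2 libraries lay under both controls in 16 genes (48.5%, against 22.2% of all genes) and over both in 1, Me1 (against 22.8%). The other 16 overlapped. Within the treated group, replicate 1 lay below replicate 2 in 25 of the 33 genes, against 7852 of the 15173 genes tested. Control replicate 1 lay below control replicate 2 in 21 of the 33, against 7600 of the 15173. Among the 31 tested genes that did not pass, the 95% intervals of the log2 fold change ran from -0.44 to 0.39, that is from -26.2% to 30.9%.

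**Figure D1:**
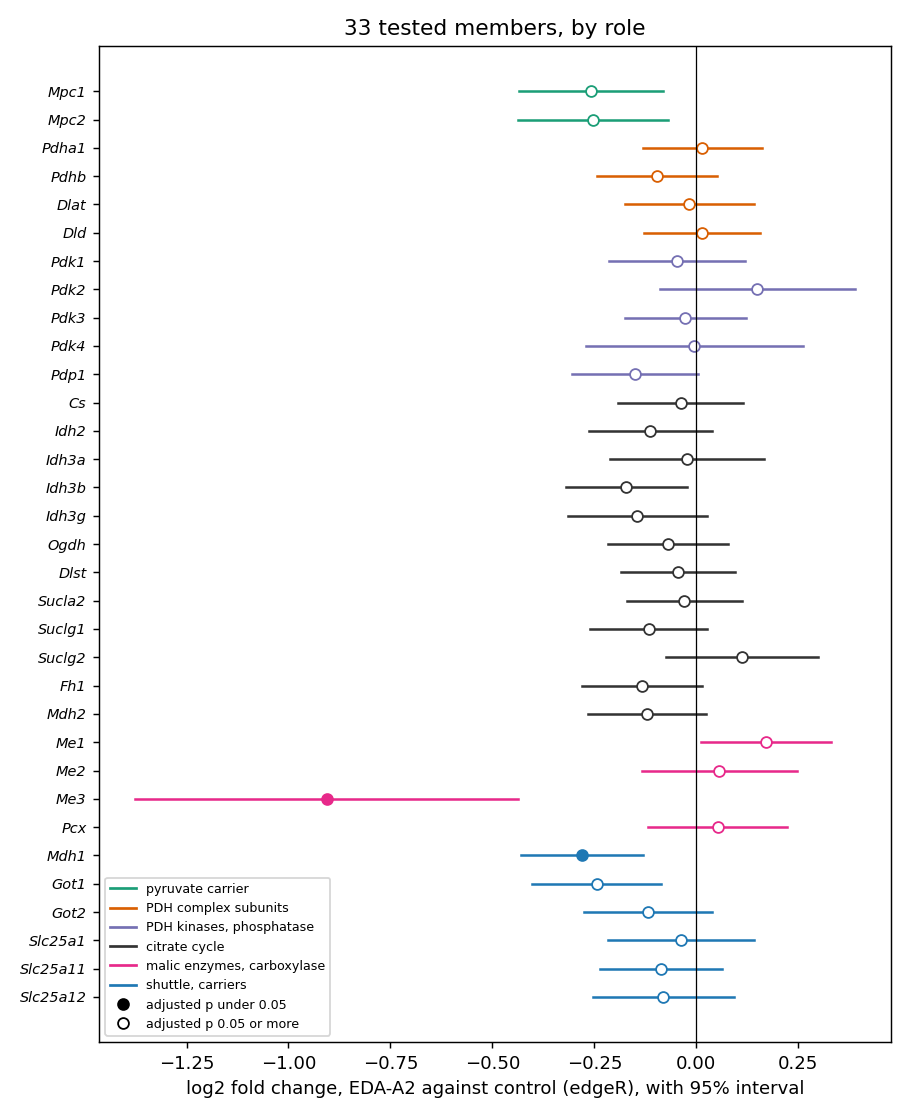
Log2 fold change (x axis) of EDA-A2 against control for the 33 tested genes (y axis), grouped by role, with bars for the 95% intervals from edgeR and filled points for an adjusted p under 0.05. Me3 at -0.91 and Mdh1 at -0.28 carry the only filled points, and the 26 genes with an unadjusted p of at least 0.05 lie between -0.15 and 0.15.

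Levels between genes were compared only per length, as CPM (counts scaled to 1000000 counts per library) per kilobase of exon of each gene's canonical transcript. In controls the highest was Mdh2, the mitochondrial malate dehydrogenase of the cycle, at 207 ± 7.98 (SD, n = 2), followed by Pdha1 at 172 ± 8.33, Mdh1 at 152 ± 3.07, Cs (citrate synthase) at 138 ± 4.43 and Pdk1 at 129 ± 14.0. These 5 were above 100 in every library. At the low end stood Pcx, the pyruvate carboxylase that refills oxaloacetate, at 9.40 ± 0.347, then Me3 at 1.45 ± 0.382 and Slc25a13, the citrin carrier, at 0.0329 ± 0.0236. The 2 called genes thus sat at opposite ends of the range, with only Mdh2 and Pdha1 above Mdh1 and only Slc25a13 below Me3. The spread between the controls of Pdk1 spanned the mean of Cs, so their order was not resolved by these libraries.

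**Figure D2:**
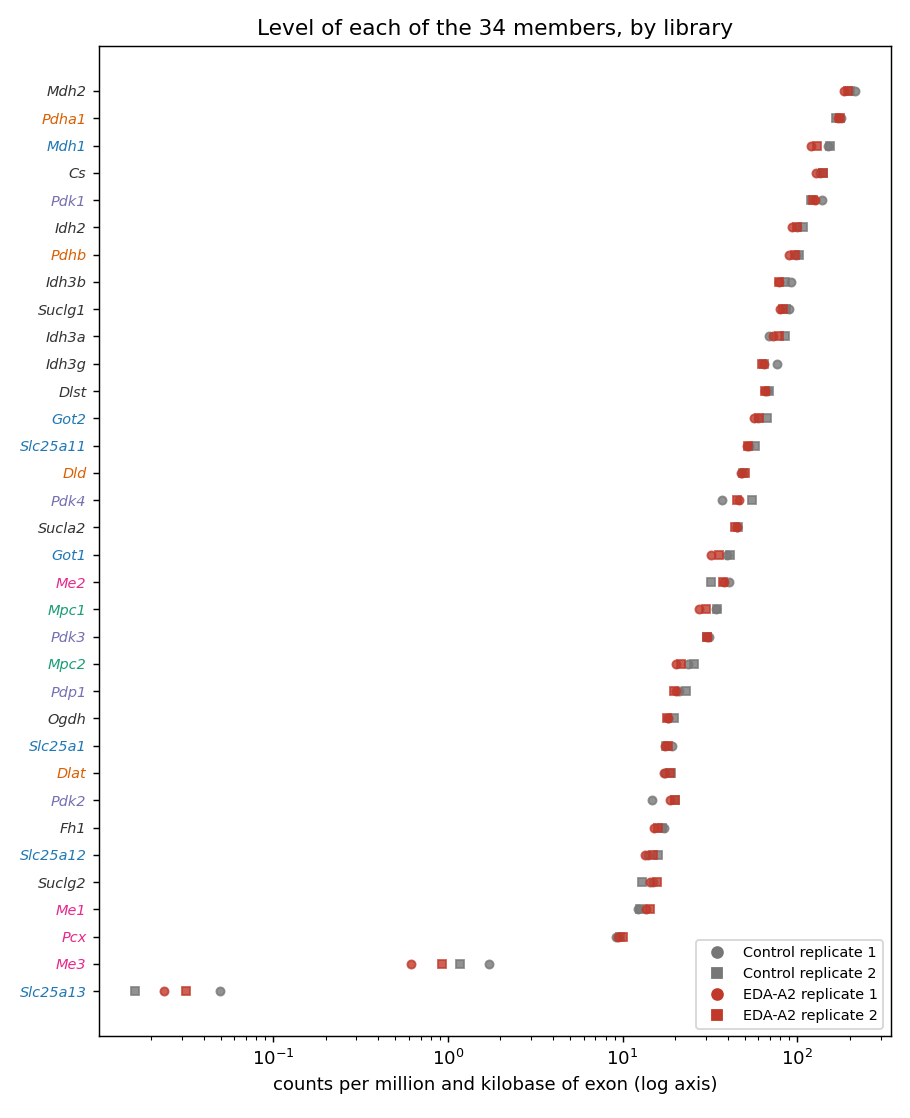
Level of each of the 34 genes in each library (x axis: CPM per kilobase of exon, log axis), ordered by the control mean, with grey for control, red for EDA-A2, circles for replicate 1 and squares for replicate 2. Levels in controls run from 0.0329 for Slc25a13 to 207 for Mdh2, and the red points of Mdh1 and Me3 lie to the left of both grey ones.

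The malate-aspartate shuttle held the most abundant of the genes that fell. Mdh1 (ENSMUSG00000020321; GRCm39 chr11:21506423-21522367, minus strand) encodes the cytosolic enzyme that reduces oxaloacetate to malate and so loads the shuttle. Its normalized counts, which are counts scaled to a common library size after trimmed-mean (TMM) normalization, were 11076 and 11398 in control replicates 1 and 2 and 8832 and 9664 in replicates 1 and 2 of EDA-A2. Both treated libraries were below both controls. The log2 fold change was -0.28 ± 0.07 (SE, n = 2 and 2), a difference of -17.7% with a 95% interval of -25.8% to -8.73% and an edgeR adjusted p of 0.0317. Without control replicate 1, control replicate 2, EDA-A2 replicate 1 or EDA-A2 replicate 2 the edgeR adjusted p was 0.308, 0.287, 0.497 and 0.0666, and the log2 fold change stayed between -0.35 and -0.22. Each of these fits leaves 1 group with a single library, so a lost call is not a measure of Mdh1 alone. Under total-count scaling its edgeR adjusted p was 0.081. Exons of Mdh1 share 482 bases with Wdpcp on the opposite strand, and Wdpcp itself had 204 to 241 counts per library.

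Got1, the cytosolic aspartate aminotransferase that works beside MDH1 in the shuttle, lies on chromosome 19 at GRCm39 chr19:43488188-43513674 on the minus strand. It had 2449 and 2526 normalized counts in the controls and 1988 and 2211 after treatment, again without overlap. Its log2 fold change was -0.24 ± 0.07 with an edgeR adjusted p of 0.0852, so it did not pass. Among the mitochondrial partners, Mdh2 had 9462 and 8961 against 8258 and 8674 (log2 fold change -0.12 ± 0.07, edgeR adjusted p = 0.44), and Got2 had 4497 and 5013 against 4238 and 4519 (-0.12 ± 0.07, edgeR adjusted p = 0.498), with the latter overlapping between groups. Within each library the per-length ratio of Mdh1 to Mdh2 was 0.702 and 0.763 in controls and 0.642 and 0.668 after EDA-A2, and that of Got1 to Got2 was 0.664 and 0.614 against 0.572 and 0.596. Both ratios were therefore lower in each treated library than in each control, with means that differed from the control mean by -10.6% and -8.60%. An exact two-sided permutation test gave p = 0.333 for each, which is the smallest value that 2 libraries against 2 allow, so no call can be made. These ratios were chosen after the values had been seen. A processed pseudogene, Got2-ps1, is 99.1% identical to Got2 over 1293 bases and had 8 to 13 counts per library. The effect of reads that match both on the Got2 counts was not tested.

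The carriers of the shuttle and the citrate carrier gave log2 fold changes of -0.09 to -0.04. Slc25a11, which exchanges malate for 2-oxoglutarate, had 2698 and 2910.2 normalized counts in controls and 2625 and 2653 after EDA-A2 (log2 fold change -0.09, edgeR adjusted p = 0.637). Slc25a12, the aspartate-glutamate carrier known as aralar, had 2623 and 3007 against 2529.9 and 2795 (-0.08, edgeR adjusted p = 0.725). Slc25a1, which exports citrate for lipid synthesis, had 1041 and 961 against 957.6 and 993.6 (-0.04, edgeR adjusted p = 0.90), and its direction turned positive, to 0.02, under total-count scaling. Of these, Slc25a12 and Slc25a1 overlapped between groups. Aralar was almost the whole of its family: the citrin gene Slc25a13 had 6, 2, 3 and 4 raw counts beside 2546, 2982, 2581 and 2844 for Slc25a12, a share of 0.235% (95% exact Clopper-Pearson interval 0.0863 to 0.511), 0.067% (0.00812 to 0.242), 0.116% (0.0239 to 0.339) and 0.14% (0.0383 to 0.359) of the counts of the 2 genes in control replicates 1 and 2 and EDA-A2 replicates 1 and 2. The intervals overlap and cover counting error only.

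**Figure D3:**
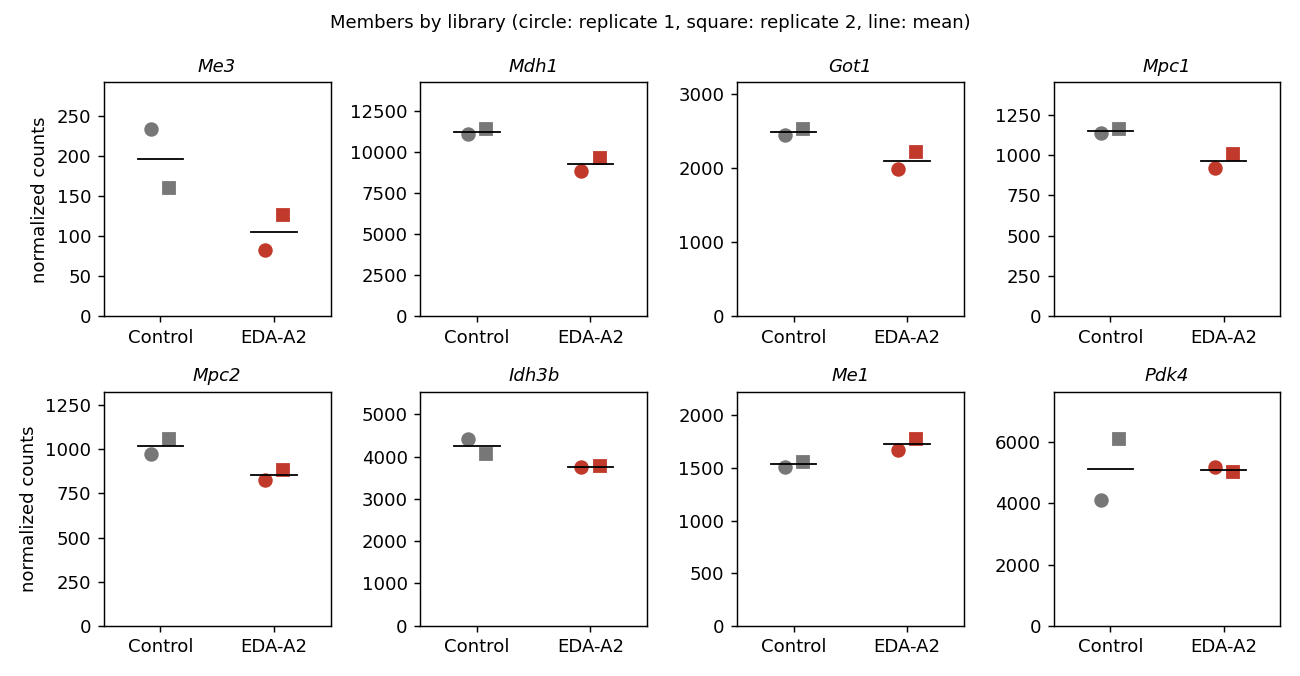
Normalized counts (y axis, from 0) of 8 genes in each library, with a circle for replicate 1, a square for replicate 2 and a line at the mean, for control and EDA-A2. In Me3, Mdh1, Got1, Mpc1, Mpc2 and Idh3b both EDA-A2 points lie under both control points, in Me1 over them, and in Pdk4 the control points at 4120.2 and 6126 enclose both EDA-A2 points.

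Among the enzymes that turn malate and pyruvate into each other, 1 of the 3 malic enzymes fell past the threshold. Me3 (ENSMUSG00000030621; GRCm39 chr7:89278399-89503615, plus strand) had 233.9 and 160.3 normalized counts in the controls and 83.3 and 126.8 after EDA-A2. The groups did not overlap, although the gap between EDA-A2 replicate 2 and control replicate 2 was smaller than the gap between the controls. The log2 fold change was -0.91 ± 0.22 (SE, n = 2 and 2), or -46.6% with a 95% interval of -61.5% to -26.1%, and the edgeR adjusted p was 0.0284. Without control replicate 1, control replicate 2 or EDA-A2 replicate 1 the call was lost, with edgeR adjusted p-values of 0.445, 0.238 and 0.194, and without EDA-A2 replicate 2 it was 0.00449. The log2 fold change ranged from -1.24 to -0.61 over these fits. Each of them leaves 1 group with a single library, so a lost call is not a measure of Me3 alone. The antisense RNA A230065N10Rik overlaps 459 exonic bases of Me3 and had 24, 18, 9 and 12 counts in the same order of libraries, lower in both treated libraries as well. Reads of the 2 genes cannot be told apart there if counting ignored strand.

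Me1, the cytosolic malic enzyme that supplies NADPH, was the one gene with both treated libraries above both controls: 1509 and 1559 normalized counts in controls and 1674 and 1781 after EDA-A2. Its log2 fold change was 0.17 ± 0.07 with an edgeR adjusted p of 0.272, so it did not pass. Me2, the mitochondrial enzyme that uses NAD, had 5986 and 4762 against 5642 and 5534, with both treated libraries inside the range of the controls (log2 fold change 0.06, edgeR adjusted p = 0.851). Pcx had 1145 and 1206 against 1181 and 1257 (0.05, edgeR adjusted p = 0.843), also overlapping. Per length, Me2 made up most of the malic enzyme transcripts, at 72.2% ± 3.10 (SD, n = 2) in controls and 71.9% ± 1.42 after EDA-A2. Me1 made up 25.0% ± 3.52 and 26.6% ± 1.0, and Me3 2.85% ± 0.421 and 1.46% ± 0.42. A processed pseudogene, Gm7049, is 98.4% identical to Me1 over 1716 bases and had 0 to 5 counts per library. Its effect on the Me1 counts was not tested. The Me3 share was lower in each treated library (1.17% and 1.76%) than in each control (3.15% and 2.55%), at an exact permutation p of 0.333, the smallest possible with these libraries. The gene that fell by the largest factor was thus the rarest malic enzyme in every library.

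Both subunits of the mitochondrial pyruvate carrier were lower without passing the test. Mpc1 had 1137 and 1159.7 normalized counts in the controls and 917.5 and 1003 after EDA-A2, a log2 fold change of -0.26 ± 0.08 (edgeR adjusted p = 0.105). Mpc2 had 976.7 and 1062 against 827.3 and 883.5, or -0.25 ± 0.09 (edgeR adjusted p = 0.131). The 2 genes, whose proteins form the carrier together, differed from control by similar amounts, -16.4% and -16.1%, and no treated library reached a control in either gene. A processed pseudogene, Mpc1-ps, is identical to Mpc1 over 261 bases and had 129 to 172 counts, and reads lying wholly within that stretch match both.

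No subunit of the PDH complex, the next step after the carrier, passed the test. Pdha1, which encodes the E1 alpha subunit that the kinases phosphorylate, had 15097 and 14099 normalized counts in controls and 14591 and 14902 after EDA-A2, with a log2 fold change of 0.01 ± 0.07. Pdhb, the E1 beta subunit, had 4449 and 4583 against 4052 and 4399 (-0.10 ± 0.07), and was the one subunit whose groups did not overlap. Dlat, the E2 subunit, had 3455 and 3776 against 3410 and 3734 (-0.02), and Dld, the E3 subunit shared with the 2-oxoglutarate dehydrogenase complex, had 6445 and 6477 against 6327 and 6712 (0.01). Their edgeR adjusted p-values were 0.586 to 0.96, and the summed counts of the 4 subunits differed by -0.435%. The 95% intervals of Pdha1 and Dld ran from -8.69% to 11.7% and from -8.56% to 11.4%. At an unadjusted edgeR p under 0.05, 0 of the 4 differed, and DESeq2 called 0. Exons of Dld and Pdhb overlap Lamb1 (10882 to 11124 counts per library) and Pxk (at least 857 counts) on the opposite strand. A processed pseudogene, Gm6123, is 97.0% identical to Pdhb over 1079 bases and had 3 to 4 counts per library.

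Of the kinases that inactivate PDH, Pdk1 was the main one in these myotubes and Pdk4 the most variable. Pdk1 had 21661 and 18569.6 normalized counts in controls and 19691 and 19254 after EDA-A2 (log2 fold change -0.05 ± 0.08). Pdk4 had 4120.2 and 6126 against 5188 and 5024 (-0.01 ± 0.12, edgeR adjusted p = 0.991), with both treated libraries between the controls. The Pdk4 controls differed from each other by 0.57 on the log2 scale, the widest gap between controls among the 33 tested genes of the 34. Without control replicate 1 the Pdk4 log2 fold change was -0.26 and without control replicate 2 it was 0.31, so its direction rests on which control is used. Pdk2 had 1013 and 1367 against 1273 and 1367 (0.15 ± 0.11, edgeR adjusted p = 0.608), with control replicate 1 again the low library, and without that library its log2 fold change was -0.05. Pdk3 had 2288 and 2202 against 2204 and 2202 (-0.03 ± 0.07). The phosphatase gene Pdp1 had 2893 and 3214 against 2785 and 2719, lower in both treated libraries (-0.15 ± 0.07, edgeR adjusted p = 0.346). Of these 5 genes 0 differed at an unadjusted edgeR p under 0.05, and DESeq2 called 0.

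The isoform make-up of the PDH kinases was compared as shares of their summed level per length. Pdk1 made up 57.8% ± 6.68 (SD, n = 2) of the kinase transcripts in controls and 56.7% ± 0.366 after EDA-A2, and Pdk4 20.6% ± 5.56 and 20.8% ± 0.278. Pdk3 took 13.8% ± 0.47 and 13.7% ± 0.12, and Pdk2 7.80% ± 1.59 and 8.78% ± 0.523. The groups overlapped for all 4 kinases. The ratio of Pdk4 to Pdk1 was 0.266 and 0.462 in controls and 0.369 and 0.365 after EDA-A2 (exact permutation p = 1.0), the 2 treated libraries being closer to each other than the 2 controls. For the beta subunits of succinyl-CoA ligase, which decide between the ADP-forming and the GDP-forming enzyme, Sucla2 took 76.5% ± 2.19 in controls and 74.7% ± 1.59 after EDA-A2, and Suclg2 the rest (23.5% ± 2.19 and 25.3% ± 1.59). Their exact permutation p was 0.667.

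**Figure D4:**
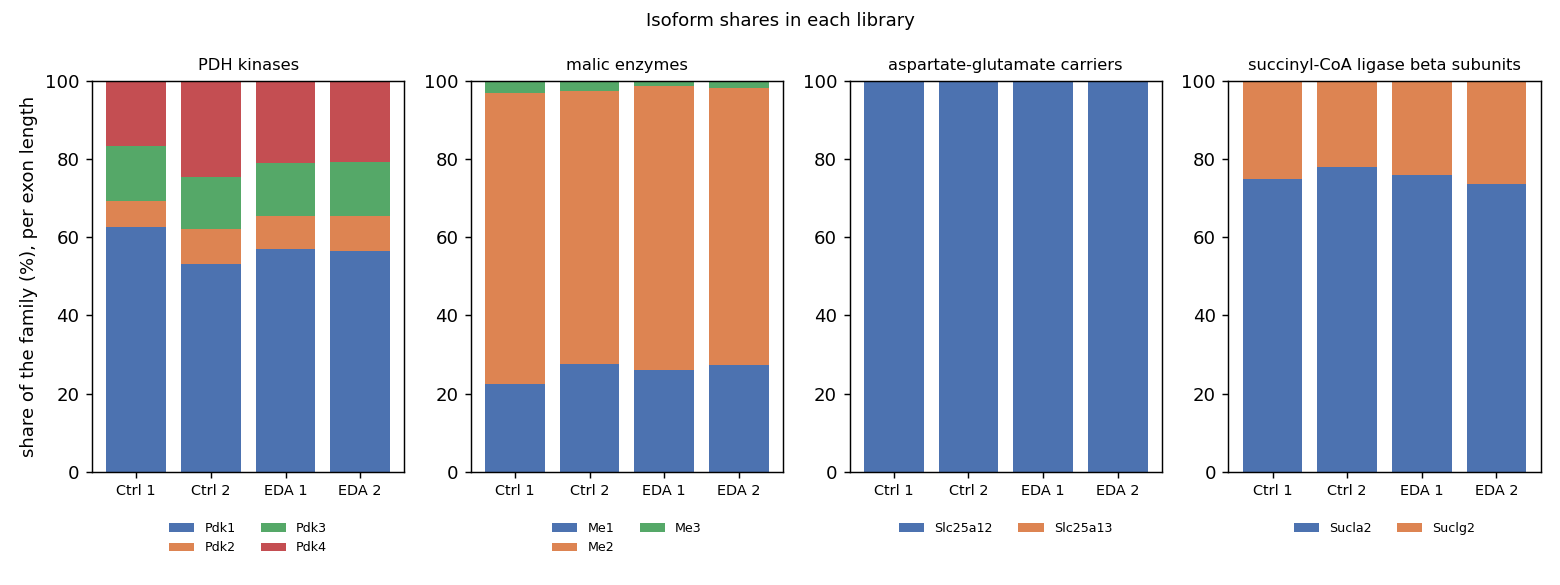
Share (y axis, % of the family's level per exon length, from 0 to 100) of each isoform in 4 families, as stacked bars for control replicates 1 and 2 (Ctrl) and EDA-A2 replicates 1 and 2 (EDA). The thin top band of the malic enzymes is Me3, at 3.15% and 2.55% in controls and 1.17% and 1.76% after EDA-A2, and the aspartate-glutamate carrier bars are Slc25a12 to more than 99.6%.

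In the citrate cycle, 11 of the 12 genes had lower estimated levels after EDA-A2, against 50.5% of all genes tested. None of the 12 passed by edgeR or DESeq2, and the median of their log2 fold changes was -0.09. At an unadjusted edgeR p under 0.05, 1 gene (Idh3b) was lower, against 8.03% of all genes. Both treated libraries lay under both controls in 8 of the 12, against 22.2% of all genes. Under total-count scaling the estimates of Cs, Idh3a, Dlst and Sucla2 turned positive, at 0.02, 0.03, 0.01 and 0.03. The lowest estimate was that of Idh3b, a subunit of the NAD-linked isocitrate dehydrogenase, with 4428 and 4051 normalized counts in controls and 3744 and 3781 after EDA-A2 (log2 fold change -0.17 ± 0.07, edgeR adjusted p = 0.227). The other subunits of that enzyme gave -0.14 for Idh3g (3548 and 3016 against 2992 and 2947) and -0.02 for Idh3a (5248 and 6481 against 5542 and 6005). Only the Idh3a groups overlapped, and its control replicate 1 was the lowest of the 4 libraries. Exons of Idh3a and Idh3g overlap Acsbg1 (334 to 465 counts) and Ssr4 (1431 to 1613 counts) on the opposite strand.

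The other cycle genes gave log2 fold changes of -0.13 to 0.11. Cs, which opens the cycle, had 11746 and 12292 normalized counts in controls and 11127 and 12281 after EDA-A2, overlapping between groups (log2 fold change -0.04). Fh1, the fumarase, had 2720.0 and 2636 against 2383 and 2500.2 without overlap (-0.13, edgeR adjusted p = 0.393), and Idh2, the mitochondrial NADP-linked isocitrate dehydrogenase, 5151 and 5619.8 against 4832 and 5129 (-0.11). Ogdh and Dlst, subunits of the 2-oxoglutarate dehydrogenase complex, gave -0.07 and -0.04, each without overlap. Suclg1, the alpha subunit of succinyl-CoA ligase, gave -0.12 and the beta subunit Sucla2 -0.03. A processed pseudogene near-identical to Suclg2 had 2 to 7 counts per library. Suclg2 was the one cycle gene with a higher estimate, at 1522 and 1308 against 1458 and 1601 (0.11, edgeR adjusted p = 0.625), and its groups overlapped.

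Promoter windows were searched for the motifs of 5 transcription factor families known to act on metabolic or inflammatory genes, and the matched stretches are printed to show what was found. Windows from 250 bases before to 50 after each RefSeq start site (table build GRCm38.p6) were on hand for 31 of the 34 genes, and the sites were placed in GRCm39 by exact match of the window. On both strands, AAGGTCA, the core site of estrogen-related receptors (ERR), was present in Got1 and Ogdh, 2 of the 31 against 5.38% of all genes with a window. TGACGTCA (CREB) was present in Mdh2 and Ogdh, 2 of 31 against 2.03%, and GCGCATGC (NRF1) in Ogdh, 1 of 31 against 3.05%. GTAAACA (FOXO) and GGGANTTCC (NF-kB) were in none of the 31, against 4.05% and 1.92%. Only the letters printed were searched, so other forms of each family's site were not seen. At shares this low, a motif found in none of 31 genes does not show a lack of sites. None of the 5 motifs was found in the windows of Mdh1 or Me3, but the RefSeq starts of these genes lie 277 and 183 bases after the start of the GENCODE canonical transcript, so that all of the Mdh1 window and part of the Me3 window are inside that transcript and the bases before its start were searched in part or not at all. The sites are given 5′ to 3′ on the strand of the gene in runs of 30 bases with the motif in capitals, the first with its core site starting 245 bases before the start of Got1 (chr19:43513265-43513294, minus strand), the second 127 bases before that of Mdh2 (chr5:135807365-135807394, plus strand), and the last 3 from alternative starts of Ogdh (chr11:6241535-6241564, chr11:6242532-6242561 and chr11:6242154-6242183, plus strand), where the ERR core site reads in reverse. Counted from the canonical starts instead, the Got1 match lies before the start, the Ogdh CREB match spans it, and the Mdh2 match and the other Ogdh matches lie after it. The RefSeq start of Mdh2 is 211 bases downstream of the canonical one, and the Ogdh starts behind the ERR and NRF1 matches are 619 and 1007 bases downstream.
Got1 ERR core site: cccagAAGGTCAggaggttgtcctctgggg
Mdh2 CREB: ggagagaatcgTGACGTCAggcctcgctcg
Ogdh CREB: acccaattctgTGACGTCAcgtcacgccca
Ogdh NRF1: ctaggtgttgtGCGCATGCgtaactcaact
Ogdh ERR core site: ggacacggcgcTGACCTTggtgcctgcggc
A match of letters is a description of the window and not a bound site. Of the genes that share one of these motifs, Got1 and Ogdh had log2 fold changes of -0.24 and -0.07 and Mdh2 -0.12, none of them past the threshold. Median GC content was 61.0% over the windows of these genes and 52.7% over all windows.

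Another 30 genes of pyruvate and citrate cycle metabolism were set beside the 34. Of these 27 were tested, 0 were lower and 1 was higher past the threshold (0 and 0 by DESeq2), with 17 lower in estimate and a median log2 fold change of -0.05. At an unadjusted p under 0.05, 3 were lower and 2 higher, against 8.03% and 7.61% of all genes tested by edgeR. The shares of all genes past the threshold were 2.13% lower and 2.45% higher, and 50.5% were lower in estimate. The gene that rose was Slc25a10, the mitochondrial dicarboxylate carrier, which exchanges malate or succinate for phosphate. It had 297.8 and 274.3 normalized counts in controls and 392.1 and 401.0 after EDA-A2, with both treated libraries over both controls (log2 fold change 0.47 ± 0.12, edgeR adjusted p = 0.0295). Without control replicate 1, control replicate 2, EDA-A2 replicate 1 or EDA-A2 replicate 2 its edgeR adjusted p was 0.288, 0.228, 0.145 and 0.219, and by the DESeq2 Wald test it was 0.113. A fit without 1 library leaves 1 group with a single library, so a call lost there is not a measure of Slc25a10 alone. Unlike Slc25a11 and Slc25a12, Slc25a10 is not a part of the malate-aspartate shuttle.

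Genes next to the pathway were summarized in the same way. By edgeR, 50.5% of all genes tested were lower in estimate, 8.03% were lower at an unadjusted p under 0.05 and 2.13% were called lower. All 4 genes of complex II, which takes the electrons of succinate, were lower in estimate and none passed by edgeR or DESeq2 (2 at an unadjusted edgeR p under 0.05), with a median log2 fold change of -0.15. All 36 tested subunits of complex I, which takes the electrons of NADH, were lower in estimate, with a median of -0.17. At an unadjusted edgeR p under 0.05, 19 of the 36 were lower and 0 higher. By edgeR 2 passed (Ndufa13 and Ndufb10, at edgeR adjusted p = 0.0224 and 0.0461), and by DESeq2 1 passed, where Ndufb10 had an adjusted p of 0.0686. Of 14 glycolysis genes 13 were lower in estimate with a median of -0.13, and 4 were lower and 0 higher at an unadjusted edgeR p under 0.05. The muscle enolase Eno3 was the 1 that passed by edgeR (-0.27, edgeR adjusted p = 0.037), against 3 by DESeq2. None of Ndufa13, Ndufb10 and Eno3 passed when any one library was left out, with edgeR adjusted p-values of 0.129 to 0.439. Each of those fits leaves 1 group with a single library, so a lost call is not a measure of the gene alone. The differences of complex I, complex II and glycolysis from the 34 genes were not tested.

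As summed normalized counts, the 34 genes were at 158883 and 159188 in controls and 149045 and 154367 after EDA-A2, a difference of -4.61%. The same sum over all 53647 genes of the count tables differed by -3.74%, again with both treated libraries under both controls. By role the difference was -16.2% for the pyruvate carrier, -12.3% for the shuttle and related carriers, -5.18% for the citrate cycle, -2.75% for the PDH kinases and phosphatase, -0.435% for the PDH subunits and 4.34% for the malic enzymes with pyruvate carboxylase. In the first 4 of these both treated libraries were under both controls, and in the last 2 they overlapped. The sums follow their most abundant genes, Mdh1 in the shuttle group and Me2 among the malic enzymes. Beside them stood -9.04% for complex II, -10.6% for complex I, -9.64% for glycolysis and -25.0% for the myotube markers, and the part of the marker difference in the values of the 34 genes was not tested.

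**Figure D5:**
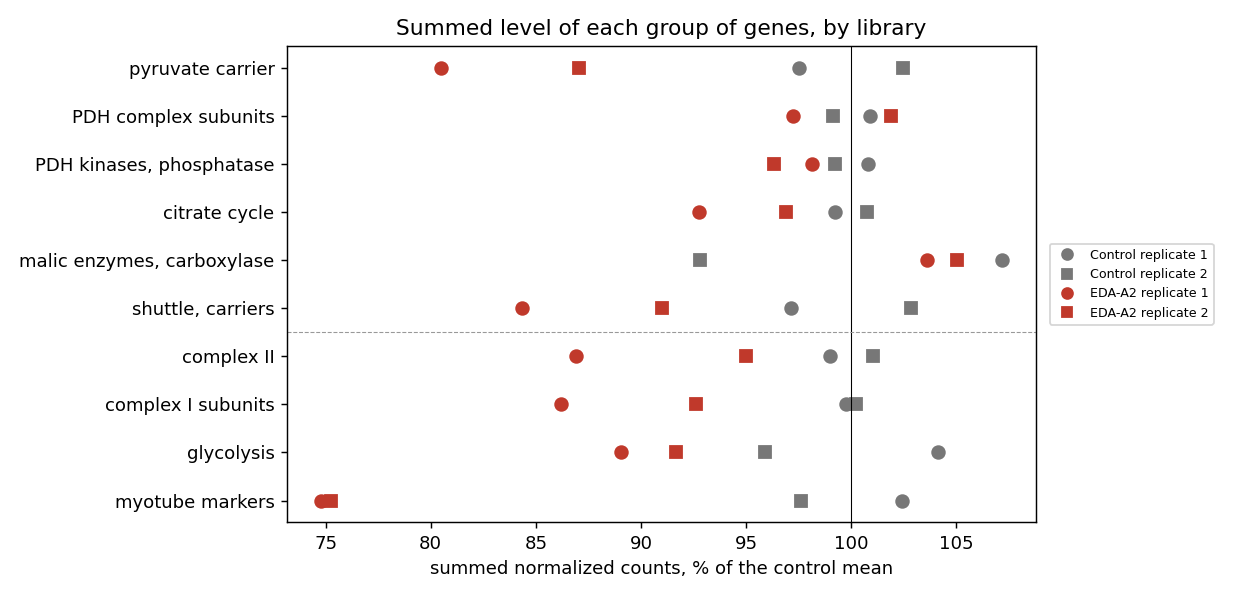
Summed normalized counts of each group of genes (y axis) in each library, as a percentage of the control mean (x axis), with grey for control, red for EDA-A2, circles for replicate 1 and squares for replicate 2, and a dashed line below the 6 roles of the 34 genes. EDA-A2 replicate 1 lies to the left of replicate 2 in 5 of the 6 roles, and the EDA-A2 points of the myotube markers lie farther left than those of any role.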

How the data were processed

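Each of the 4 tables that the authors deposited holds raw counts of read pairs by Ensembl gene for 1 library, neither normalized nor pooled. According to the submitters' processing notes and the study's methods, reads from stranded mRNA libraries were checked (FastQC 0.11.9, MultiQC 1.12), trimmed (Trim Galore 0.6.5), mapped to GRCm39 (STAR 2.7.3a) and counted (HTSeq 0.11.1). The annotation release and strand option are not given in the sources used here, which leaves genes overlapping on opposite strands uncertain. The 5 HTSeq lines that name no gene entered neither library sizes nor tests: 6.68% to 7.40% of pairs lay outside genes, 0.946% to 0.986% were ambiguous and 4.56% to 4.76% did not map uniquely. GENCODE M39 named 52610 of the 53647 genes.

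Counts were tested in R 4.3.3 with edgeR 4.0.16 (TMM, filterByExpr at min.count 10 and min.total.count 15, glmQLFit, glmQLFTest, condition as the only term) over all 4 libraries, with Benjamini-Hochberg adjustment over the 15173 genes tested and a threshold of 0.05. Standard errors are the log2 fold change over the square root of F. The common dispersion was 0.00384. Libraries of a group differed beyond sampling noise, with a chi-square per gene of 10.1 between controls and 4.74 between EDA-A2 libraries. The limit for a gene with 0 counts was 3 counts, 0.101 to 0.102 CPM, and counting intervals ignore duplicate reads. Isoform shares and ratios were compared by an exact two-sided permutation test, whose smallest p is 0.333. Near-identical transcripts were searched with blastn 2.17.0 (at least 95% identity over 200 bases).

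The members and gene lists were chosen with earlier results of these data known. Genes past the threshold were described in full, those with an unadjusted p under 0.05 with fold change and adjusted p, kinases, carriers and paralogue pairs by library, and up to 5 called genes per other list were named. Alternatives were DESeq2 1.42.0 size factors and Wald test, upper quartile factors, total counts, other filters, protein-coding genes only, a stricter threshold, a replicate block, counts without exon length, and leaving out each library.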

Additional observations from a re-analysis of the deposited data

How the results depend on the processing

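The number of the 33 tested genes called lower, 2 in the reported fit (Me3 and Mdh1), stayed at 2 with DESeq2 size factors, upper quartile factors, at least 10 counts in every library, protein-coding genes only and the DESeq2 Wald test. It was 1 with total counts (Me3), 0 with no filter beyond 1 count in total (6 lower and 1 higher at an unadjusted p under 0.05 by edgeR), 0 at an adjusted p under 0.01, and 0 to 1 when each library was left out in turn. In those fits a group has 1 library that is assumed to vary like the other group. No alternative called any of the 33 higher. Calls over all genes moved with the setting too. The reported fit called 323 of 15173 genes lower, and total counts 194 of 15173. With no filter beyond 1 count in total 22 of 25545 were called lower, and at an adjusted p under 0.01 135 of 15173. With total counts 17 of the 33 genes were lower in estimate (26 in the reported fit). Left-out libraries gave 23 to 27, and a median of -0.10 to -0.05. Over the alternatives the edgeR or DESeq2 adjusted p ran from 0.00449 to 0.445 for Me3 and from 0.00928 to 0.497 for Mdh1.

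Estimates that turned sign were all of genes that were not called. With total counts they were Dlat (0.036), Pdk1 (0.0093), Pdk3 (0.028), Pdk4 (0.048), Cs (0.016), Idh3a (0.031), Dlst (0.0099), Sucla2 (0.025) and Slc25a1 (0.019), and with upper quartile factors Pdk4 (0.000107). The shift of the median of all genes to 0.05 is part of total-count scaling. Leaving out libraries gave log2 fold changes of -0.15 to 0.0703 for Pdk1, -0.049 to 0.38 for Pdk2, -0.054 to 0.0025 for Pdk3, -0.26 to 0.31 for Pdk4, -0.092 to 0.024 for Slc25a1, -0.033 to 0.066 for Pdha1, -0.086 to 0.049 for Dlat, -0.17 to 0.14 for Idh3a, -0.098 to 0.23 for Me2, -0.17 to 0.022 for Slc25a12, -0.11 to 0.032 for Cs and -0.032 to 0.056 for Dld. The cause was not tested. Without dividing counts by exon length, no difference in isoform share between EDA-A2 and control moved from its reported value by more than 1 SD between replicates. Leaving out 1 of 2 libraries cannot move such a difference by more than that SD, so those fits do not test the shares.

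With the replicate number as a block, 4 of the 33 genes were called lower (Me3, Mdh1, Got1 and Mpc1, edgeR adjusted p = 0.009, 0.0113, 0.0237 and 0.0457), and Pdk4 turned to 0.021. Calls rose over the whole table as well, to 529 lower and 537 higher of 15173 genes tested, against 323 and 371 in the reported fit. The labels name no shared source for equal numbers, and the within-group differences of the 2 pairs correlated at 0.06 across all genes tested and at 0.13 across those with a mean of at least 100 counts. With 2 pairs and no shared source in the labels, the numbers were not taken to pair the libraries. With 2 libraries per group, replicate spread limits every value here.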
